A study of Mus musculus with 3 samples.

Results

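The enzymes of fatty acid beta-oxidation in mitochondria and peroxisomes were followed in AT2 cells, the alveolar epithelial cells that secrete surfactant, after air or 2 patterns of cigarette smoke (CS). The set held 44 genes chosen by their role. It took in the dehydrogenases, hydratases, isomerases and thiolases of both organelles, the electron transfer chain that serves them, and the enzymes that bring fatty acids to these pathways, but not the carnitine shuttle or the thioesterases. A gene was matched by its symbol in the array annotation. Of the 44 genes, 41 had a transcript cluster, the probe set that stands for a gene, and each had 1 cluster among 22206 on the array. Acsl1, Acsl3 and Etfb were not matched and were not analysed here.

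Beta-oxidation shortens a fatty acid bound to coenzyme A by cycles of dehydrogenation, hydration, a further dehydrogenation and cleavage by a thiolase, and each cycle frees acetyl-CoA. Mitochondria use enzymes graded by chain length and pass the electrons to the respiratory chain. Peroxisomes take very-long-chain, branched and other fatty acids that mitochondria handle poorly, and double bonds in unsaturated fatty acids are moved or reduced by auxiliary isomerases and reductases. AT2 cells make and recycle the phospholipids of surfactant, so the synthesis and the breakdown of fatty acids both run in these cells.

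The mice were female Sftpc/GFP animals on a CBA/Ca and C57BL6J background, aged 9 to 11 weeks. Their GFP transgene is active in Sftpc-expressing cells, strongly in AT2 cells and weakly in some cells where the bronchioles meet the alveoli. Mainstream CS was inhaled through the nose, in sessions of 60 minutes with 5 sessions a week, and both CS groups had 3 weeks of smoke within 5 weeks. In the continuous group the smoke weeks were consecutive and came last, and in the intermittent group weeks of air separated them. The CS mice were killed 24 h after the last session, and the air controls were of matched age. Cells high in GFP and in the epithelial surface protein EpCAM were sorted, cells from 3 mice were pooled per exposure, and 100 ng of RNA went to 1 Clariom S array. Each exposure therefore had 1 array and no replicate, so values are given without error or p-value, and precision is limited by the number of arrays. The 3 differences also share arrays with one another.

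The deposited values were on a log2 scale with a median of 5.66 to 5.70 per array. The level without signal was read from the clusters of 1414 smell and pheromone receptors (olfactory and vomeronasal), genes of the nose. Their 95th percentile, called the receptor level here, was 5.19 for air, 5.15 for continuous CS and 5.14 for intermittent CS. The log2 difference of these receptor clusters had a standard deviation of 0.249 for continuous CS against air, 0.241 for intermittent CS against air and 0.232 for intermittent against continuous CS. The central 95% of them ran from -0.57 to 0.51, from -0.59 to 0.47 and from -0.56 to 0.51 in these differences. All 17 measured AT2 markers were above the receptor level on every array, 5 of them at the highest value of the scale, 19.93. Of the 41 enzymes, 38 had a mean over the arrays above the mean receptor level of 5.16. The exceptions were Acsl6, Pecr and Acox2. Probe sets differ in response, so levels are compared within a gene and not between genes. Where 3 levels of a gene follow one another, their order is air, continuous CS, intermittent CS.

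Eci2, Eci3 and Acadl carried the differences of at least 2-fold among these genes, and all lay in the same direction, higher with intermittent CS than with air. Their start regions are shown here because these are the members that stand farthest apart between exposures. Each is the RefSeq window on GRCm38.p6 of 250 bases before and 50 bases after the gene's start, read 5′ to 3′ on the strand of the gene, with the first 50 transcribed bases in capitals. Acadl lies on the minus strand at chr1:66863260-66863559, Eci2 on the minus strand at chr13:34994095-34994394, and Eci3 on the minus strand at chr13:34963760-34964059.
Acadl: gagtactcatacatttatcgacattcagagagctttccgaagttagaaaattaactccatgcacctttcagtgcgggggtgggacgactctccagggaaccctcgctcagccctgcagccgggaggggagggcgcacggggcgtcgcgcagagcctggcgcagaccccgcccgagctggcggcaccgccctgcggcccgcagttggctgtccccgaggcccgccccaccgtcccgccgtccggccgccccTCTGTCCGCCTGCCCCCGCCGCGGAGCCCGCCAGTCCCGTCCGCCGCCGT
Eci2: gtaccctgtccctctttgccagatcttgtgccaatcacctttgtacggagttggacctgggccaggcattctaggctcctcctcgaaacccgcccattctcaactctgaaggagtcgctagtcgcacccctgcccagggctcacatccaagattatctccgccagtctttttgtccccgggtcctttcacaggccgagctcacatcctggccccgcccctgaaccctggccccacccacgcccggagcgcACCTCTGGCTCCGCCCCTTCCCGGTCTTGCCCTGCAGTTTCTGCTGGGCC
Eci3: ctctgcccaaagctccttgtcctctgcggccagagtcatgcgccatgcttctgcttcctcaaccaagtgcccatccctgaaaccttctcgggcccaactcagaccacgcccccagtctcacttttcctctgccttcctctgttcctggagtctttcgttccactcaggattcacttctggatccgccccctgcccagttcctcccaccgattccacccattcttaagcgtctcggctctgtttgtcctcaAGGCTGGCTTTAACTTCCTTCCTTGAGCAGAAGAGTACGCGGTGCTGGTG
The starts of Eci2 and Eci3 lie 30.3 kb apart on the same strand.

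Over the whole set, differences from air were small, and those past 2-fold were few. For continuous CS against air, 0 of 41 members were at least 2-fold higher and 0 lower, where 1.13% of all clusters were higher and 0.473% lower. For intermittent CS against air, 3 of 41 (7.32%) were at least 2-fold higher and 0 lower, beside 0.833% and 0.716% of all clusters. Under quantile normalization Acadl fell to 0.99 on the log2 scale, and with 32 added to each linear value Eci3 fell to 0.76. Each of these settings lowered the count. For intermittent against continuous CS, 1 of 41 (2.44%), Eci3, was at least 2-fold higher and 0 lower, beside 0.117% and 0.635% of all clusters. With 32 added to each linear value Eci3 differed by 0.66 on the log2 scale and this count was 0. The share of members that were 2-fold higher with intermittent CS thus lay above the share among all clusters, although it rested on 3 genes. The members were chosen with earlier results of these data known, so this excess is not independent support for a difference of the set. Less RNA per cell and fewer cells of a type cannot be told apart in such sorted pools.

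At a smaller fold, members higher with intermittent CS again outnumbered those lower. At a fold of 1.5, counted over the 38 members and the 12452 clusters above the receptor level, 1 member (2.63%), Eci2, stood above air with continuous CS and 0 stood as far below, beside 5.44% and 3.52% of the clusters. With intermittent CS against air, 4 members (10.5%), Acaa2, Acadl, Eci2 and Eci3, were higher and 0 lower, beside 4.85% and 4.58%. With intermittent against continuous CS, 5 members (13.2%) were higher, Hsd17b4 beside the same 4 genes, and 0 were lower, beside 1.27% and 3.41%. The members' share that was higher was above that of the clusters in both differences with intermittent CS. Those shares rested on 4 and 5 of 38 members of a set chosen with earlier results known. The shares below those of the clusters rested on 0 or 1 of 38 members, too few to read as a difference.

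The middle of the set moved little. The median log2 difference of the 41 members was 0.03 for continuous CS against air, 0.11 for intermittent CS against air and 0.01 for intermittent against continuous CS, and the median of all clusters was 0.00 in each. Against air, 23 members were above 0, 14 below and 4 equal with continuous CS, and 26 were above, 9 below and 6 equal with intermittent CS. Members above 0 made up 56.1% and 63.4%, beside 37.6% and 36.9% of all clusters, and those below 0 made up 34.1% and 22.0%, beside 38.1% and 38.7%, while 24.3% and 24.4% of all clusters were equal. The intermittent CS array alone held the highest value for 18 of 41 members (43.9%), a place it held for 21.3% of all clusters and for 24.2% of those above the receptor level. The air array alone was highest for 8 members (19.5%, against 26.3% of all clusters) and the continuous CS array alone for 6 (14.6%, against 21.3%). Another 5 members had their highest value on more than 1 array, and 4 members, Acadm, Acads, Decr1 and Pecr, held exactly the same value on all 3 arrays, as did 13.6% of all clusters.

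**Figure D1:**
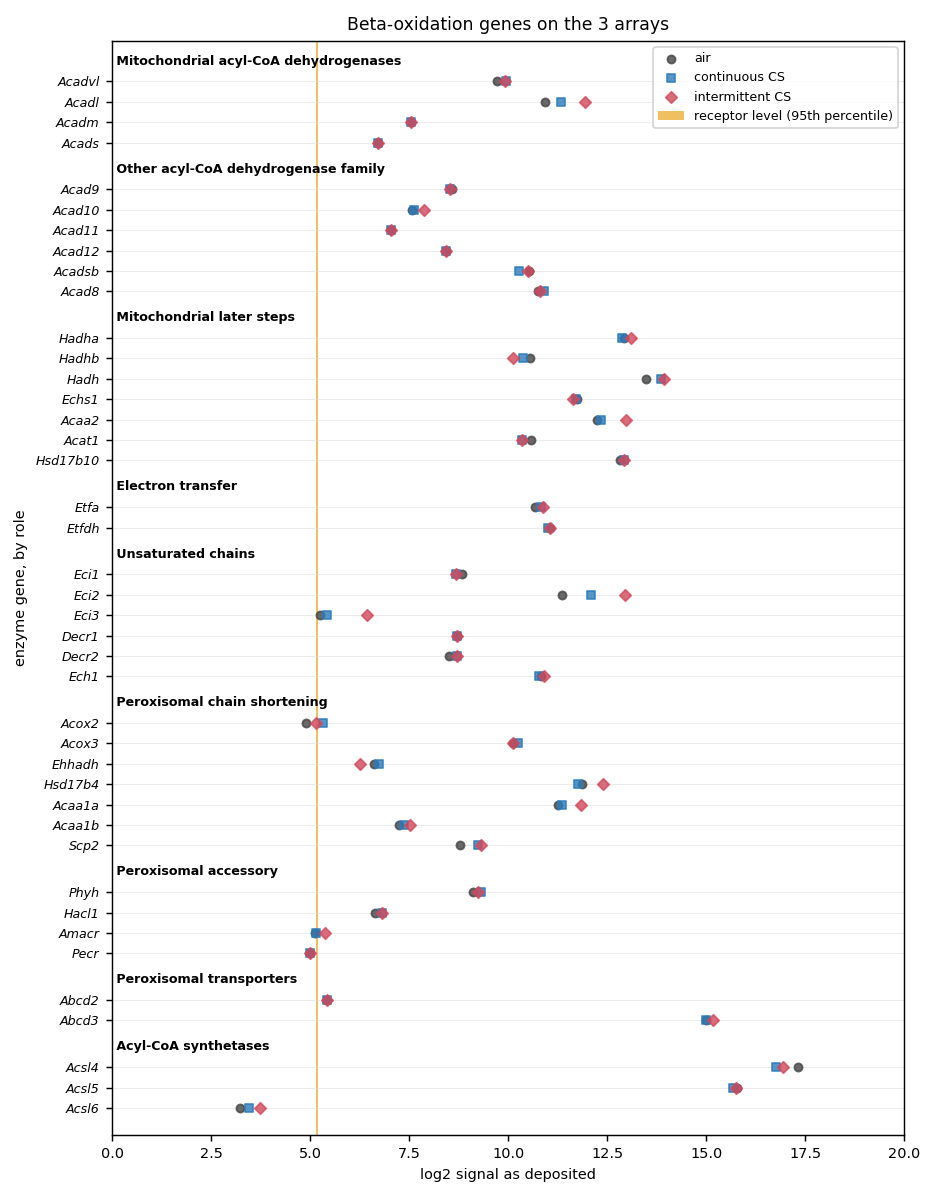
Log2 level (x axis, as deposited) of the 41 measured members, grouped by role, with 1 point per array for air, continuous CS and intermittent CS. For most members the points nearly coincide, while those of Eci2 (11.36, 12.08 and 12.95) spread in that order.

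The chain-length-graded acyl-CoA dehydrogenases catalyse the first step of the mitochondrial cycle. Acadl, the long-chain enzyme, was at 10.92 for air, 11.33 for continuous CS and 11.94 for intermittent CS. Continuous CS stood 1.33-fold above air and intermittent CS 2.03-fold, and intermittent stood 1.52-fold above continuous CS. The 3 exposures thus stood in the order air, continuous, intermittent, with the intermittent value just past the 2-fold mark. Acadvl, which acts on very long chains, was at 9.72, 9.94 and 9.92, so both CS arrays lay about equally far above air. Acadm and Acads, for medium and short chains, were at 7.55 and 6.70 on all 3 arrays. The difference in this step was therefore seen in the long-chain enzyme. The smaller differences of the very-long-chain enzyme from air lay within the central 95% of the receptor clusters.

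Other members of the acyl-CoA dehydrogenase family differed less. Acadsb, which breaks down isoleucine and short branched chains, was at 10.53 for air, 10.28 for continuous CS and 10.50 for intermittent CS. Acad10 was at 7.57, 7.63 and 7.88, highest with intermittent CS, at 0.31 above air on the log2 scale. Acad8, the isobutyryl-CoA dehydrogenase of valine breakdown, was at 10.74, 10.90 and 10.81. Acad9, which also takes part in the assembly of respiratory complex I, was at 8.58, 8.54 and 8.52. Acad11 and Acad12 differed by at most 0.01 on the log2 scale between any arrays. Over these 6 genes the median difference from air was 0.01 with either CS pattern.

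The later steps of the mitochondrial cycle are carried out by the trifunctional protein on long chains and by separate enzymes on shorter ones. Acaa2, the thiolase of medium chains, was at 12.24 for air, 12.34 for continuous CS and 12.97 for intermittent CS, and was 1.67-fold higher with intermittent CS than with air and 1.55-fold higher than with continuous CS. Continuous CS and air were close for this gene, at a log2 difference of 0.11. Hadh, the hydroxyacyl-CoA dehydrogenase of medium and short chains, was at 13.49, 13.85 and 13.94, so that it was higher on both CS arrays, by 0.36 and 0.45. Echs1, the short-chain hydratase, was at 11.73, 11.71 and 11.64. Acat1, the acetoacetyl-CoA thiolase that ketone body metabolism also uses, was at 10.58, 10.35 and 10.34. Hsd17b10, a hydroxyacyl-CoA dehydrogenase that also forms part of mitochondrial RNase P, was at 12.82, 12.92 and 12.93. None of the short-chain members, Acads, Echs1 and Acat1, was above its air value on a CS array, whereas both genes of medium and short chains, Acaa2 and Hadh, were.

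The subunits of the trifunctional protein stood on opposite sides of air with intermittent CS. Hadha, its alpha subunit with the hydratase and dehydrogenase activities, was at 12.94 for air, 12.87 for continuous CS and 13.10 for intermittent CS. Hadhb, the beta subunit with the thiolase activity, was at 10.56, 10.36 and 10.12. Intermittent CS thus stood 0.16 above air for Hadha and 0.44 below air for Hadhb on the log2 scale, and both values lay within the central 95% of the receptor clusters. The genes are transcribed away from each other, with 272 bases between their starts. The RefSeq window of Hadhb, on the plus strand of GRCm38.p6 at chr5:30155003-30155302, is shown because it shares 228 bases with the window of Hadha. The shared bases, 30155003 to 30155230, are in capitals.
Hadhb: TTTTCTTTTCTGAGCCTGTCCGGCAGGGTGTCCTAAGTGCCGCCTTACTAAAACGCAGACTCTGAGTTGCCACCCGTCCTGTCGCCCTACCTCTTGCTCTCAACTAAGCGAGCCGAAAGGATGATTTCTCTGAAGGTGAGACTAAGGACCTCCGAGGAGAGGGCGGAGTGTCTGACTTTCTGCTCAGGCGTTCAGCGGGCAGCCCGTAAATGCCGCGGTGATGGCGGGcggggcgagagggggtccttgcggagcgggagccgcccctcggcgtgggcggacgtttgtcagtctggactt

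Electrons from the first step pass through the electron transfer flavoprotein to its ubiquinone oxidoreductase. Etfa, the alpha subunit of the flavoprotein, was at 10.67 for air, 10.82 for continuous CS and 10.87 for intermittent CS. Etfdh, the oxidoreductase, was at 11.07, 11.01 and 11.07. Both genes were at most 0.20 apart between arrays on the log2 scale.

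The enzymes that handle double bonds held the largest differences of the set. Eci2, an enoyl-CoA isomerase found in both mitochondria and peroxisomes, was at 11.36 for air, 12.08 for continuous CS and 12.95 for intermittent CS. Continuous CS stood 1.65-fold above air and intermittent CS 3.01-fold, and intermittent stood 1.83-fold above continuous CS. It was the member farthest from air on both CS arrays. Eci3, a peroxisomal isomerase known in the mouse mainly from the kidney, was at 5.26, 5.42 and 6.44. Intermittent CS was 2.27-fold above air and 2.02-fold above continuous CS, whereas continuous CS was 1.12-fold above air. On the air array Eci3 lay just above the receptor level, at 5.26 against 5.19, so its folds started from values near the level without signal. Eci2 and Eci3 are close relatives, and whether their probe sets pick up each other's RNA was not tested.

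The other auxiliary enzymes stayed near their air values. Eci1, the mitochondrial isomerase, was at 8.82 with air and at 8.68 with both CS patterns. Decr1, the mitochondrial dienoyl-CoA reductase, was at 8.69 on every array, and Decr2, its peroxisomal counterpart, was at 8.50 with air and 8.71 with both CS patterns. Ech1, a dienoyl-CoA isomerase, was at 10.82, 10.77 and 10.90. Of the 6 genes of unsaturated fatty acids, 2 were thus at least 2-fold above air with intermittent CS and the others were within 0.21 of it on the log2 scale.

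The peroxisomal cycle showed smaller differences, mostly above air. Acaa1a, a peroxisomal thiolase, was at 11.26 for air, 11.35 for continuous CS and 11.84 for intermittent CS, which placed intermittent CS 1.49-fold above air. Hsd17b4, the D-bifunctional protein of very long and branched chains, was at 11.86, 11.77 and 12.39, or 1.44-fold above air and 1.54-fold above continuous CS with intermittent CS. For both genes the continuous CS and air arrays were close, and the intermittent CS array stood apart. Scp2, whose longer product is a thiolase of branched chains, was at 8.78, 9.24 and 9.32, and here both CS arrays lay above air, by 0.46 and 0.54 on the log2 scale. Acaa1b, a close copy of Acaa1a, was at 7.23, 7.36 and 7.52, and the division of signal between the copies is uncertain.

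The oxidases and the L-bifunctional protein differed in other ways. Ehhadh, the L-bifunctional protein, which carries the hydratase and dehydrogenase steps, was at 6.60, 6.73 and 6.27, above air with continuous CS by 0.13 and below it with intermittent CS, at -0.34. It was the only member of the peroxisomal core with intermittent CS below air. Acox3, an oxidase of branched chains, was at 10.12, 10.24 and 10.13. Acox2, an oxidase of branched chains and bile acid precursors, was at 4.89, 5.31 and 5.14, around the receptor level. Over these 7 core genes the median was 0.13 above air on the continuous CS array and 0.29 above it on the intermittent CS array. Of the 7, 6 (85.7%) were above air in each, beside 37.6% and 36.9% of all clusters.

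Alpha-oxidation removes a carbon from branched chains before beta-oxidation can start. Phyh, its phytanoyl-CoA hydroxylase, was at 9.11, 9.31 and 9.24, and Hacl1, its lyase, was at 6.64, 6.80 and 6.80. Amacr, the racemase that gives branched chains the form the oxidases accept, was at 5.12, 5.15 and 5.36, above the receptor level on the intermittent CS array but not on the air and continuous CS arrays. Pecr, a peroxisomal enoyl-CoA reductase, was at 4.99 on every array. The peroxisomal importers were close between arrays as well. Abcd3 was at 14.99, 14.99 and 15.17, and Abcd2 was at 5.42, 5.41 and 5.42.

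The long-chain acyl-CoA synthetases attach fatty acids to coenzyme A. Acsl4, which prefers arachidonic acid, was at 17.32 for air, 16.76 for continuous CS and 16.95 for intermittent CS, so that it was lowest with continuous CS, 1.47-fold below air. It had the largest difference below air of any member. Acsl5 was at 15.79, 15.68 and 15.75. Acsl6, known mainly from the brain, was at 3.22, 3.46 and 3.73, below the receptor level on every array, and no fold is given for it.

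**Figure D2:**
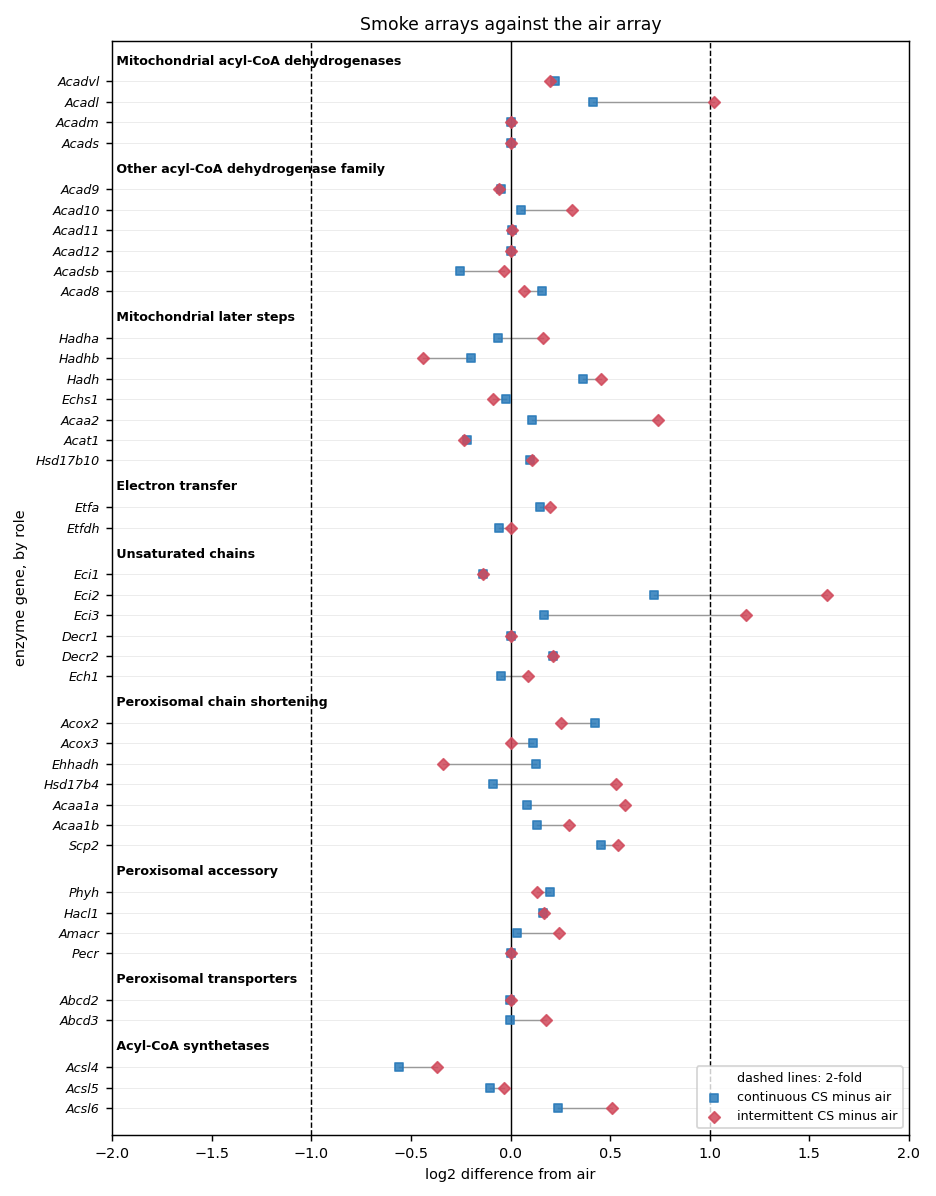
Log2 difference from the air array (x axis) for each of the 41 measured members, grouped by role, with 1 point for continuous CS and 1 for intermittent CS. Eci2 stands at 0.72 and 1.59, Acadl at 0.41 and 1.02 and Eci3 at 0.17 and 1.18, while Acsl4 stands at -0.56 and -0.37.

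By organelle, the 19 measured genes whose products act in mitochondria alone had a median of 0.00 against air with either CS pattern. The 14 genes of peroxisomes alone had medians of 0.13 for continuous CS and 0.20 for intermittent CS. Of them, 10 (71.4%) and 11 (78.6%) were above air, beside 37.6% and 36.9% of all clusters. With continuous CS all 14 lay within the central 95% of the receptor clusters. With intermittent CS all but Eci3, Acaa1a, Scp2 and Hsd17b4 did. Acox2 and Pecr among them had means not above the receptor level. Between the CS arrays the medians of both groups were within 0.01 of 0. Of the genes farthest above air with intermittent CS, Acadl and Acaa2 act in mitochondria, Eci3, Acaa1a, Scp2 and Hsd17b4 in peroxisomes, and Eci2 in both.

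The CS arrays were also set directly against each other. Eci3 (1.01 on the log2 scale), Eci2 (0.87), Acaa2 (0.63), Hsd17b4 (0.62) and Acadl (0.61) were the members farthest apart, all higher with intermittent CS. Their products belong to isomerisation, thiolytic cleavage, the bifunctional step and the first dehydrogenation, so they fall at different steps and in both organelles. In the other direction Ehhadh was farthest, at -0.47, followed by Hadhb at -0.25, and all differences below 0 lay within the central 95% of the receptor clusters. Above that range lay 5 members (12.2%) and below it 0, beside 2.14% and 3.69% of the clusters above the receptor level. Of the 41 members, 23 (56.1%) were above 0, 10 (24.4%) below and 8 (19.5%) equal. Among all clusters 36.1% were above 0, 36.4% below and 27.5% equal.

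**Figure D3:**
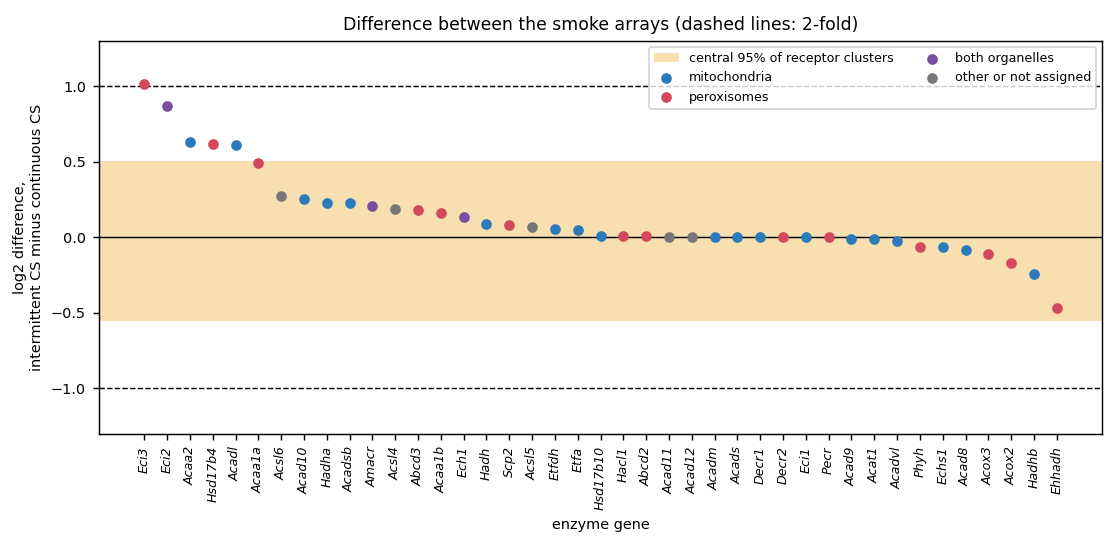
Log2 difference of the intermittent CS array from the continuous CS array (y axis) for each of the 41 measured members in order of size (x axis), beside the central 95% of the 1414 receptor clusters (-0.56 to 0.51). Eci3, Eci2, Acaa2, Hsd17b4 and Acadl stand above that range and no member stands below it, beside 2.14% and 3.69% of the clusters above the receptor level.

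A RefSeq window was found for 37 of the 44 listed genes, with 42 windows in all. Abcd2, Acaa2, Acad9, Acat1, Amacr, Decr1 and Hsd17b4 had no entry. PPARalpha, a nuclear receptor known for driving fatty acid oxidation genes in liver, binds direct repeats of a half-site with 1 base between them, so AGGTCA followed, after any 1 base, by AGGTCA again was searched on both strands with at most 2 mismatches. A match was found for 3 of 37 genes (8.11%), beside 4.4% of 27025 genes in the table. The matches are shown because they are the only ones in the set, each with 2 mismatches, written 5′ to 3′ on their own strand with the letters shared with the motif in capitals.
Acox2: AGGaCAgAGGTgA
Echs1: AGGTCAcgGGTCc
Etfa: AGGgCAaAGGTaA
They begin at 9, -83 and -77 bases from the start, the last on the strand opposite to its gene. None of the 3 members at least 2-fold above air had such a match in its window. Matches were rare over all genes too, so their absence from 3 genes says little. Sites outside the 250 bases before and 50 after the start were not searched. CACGTG, the E-box bound by clock proteins and other factors, was in 0 of 37 genes, beside 8.09% of all. Where a gene had several windows, the highest CpG count and the highest GC share among them were taken. The members then had a median of 17 CpG dinucleotides and 60.3% GC. Over all genes these medians were 8 and 53.3%, so both were higher for the members.

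Genes around beta-oxidation were described with further lists. In the carnitine shuttle, which carries long chains into mitochondria, 7 of 8 genes (87.5%) were above air with each CS pattern. All clusters above air made up 37.6% and 36.9%. Cpt1a, its entry enzyme, was at 8.57 for air, 9.59 for continuous CS and 11.26 for intermittent CS, and Slc25a20, the carnitine carrier of the inner membrane, was at 8.79, 8.86 and 9.82. Both had their highest value with intermittent CS, as Acadl, Eci2 and Acaa2 did. Of 15 thioesterases, which free fatty acids from coenzyme A, 2 were at least 2-fold above air with intermittent CS, Acot1 at 11.59, 11.70 and 13.57 and Acot2 at 13.68, 14.06 and 14.85. The median of the thioesterases was 0.08 and 0.00 against air.

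Other lists held few genes past 2-fold. Among 18 genes of branched-chain and propionyl-CoA breakdown, Pccb, a subunit of propionyl-CoA carboxylase, was at 10.34, 11.44 and 11.24, and was the only one at least 2-fold above air, with continuous CS. Among 20 other synthetases and uptake genes, Fabp3, a fatty acid binding protein of muscle, was at 4.28, 5.05 and 5.66, below the receptor level on the air and continuous CS arrays. The 14 measured peroxisome biogenesis genes had medians of 0.00 against air, with 0 at least 2-fold apart, and the 6 measured ketone body genes had medians of -0.06 and -0.05, also with 0. The medians of the peroxisome assembly genes stood beside 0.13 and 0.20 for the 14 peroxisomal enzymes, a difference that was not tested.

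A few regulators and PPARalpha targets were above air on both CS arrays. Of 17 measured transcriptional regulators, Ppargc1a, a coactivator of mitochondrial and fatty acid oxidation genes, was at 7.55, 8.65 and 8.87, and Klf15, a factor of fasting metabolism, was at 7.09, 8.24 and 8.47. These 2 genes were at least 2-fold above air with each CS pattern. Of 23 measured PPARalpha targets outside the enzyme set, 3 were at least 2-fold above air after continuous CS and 5 after intermittent CS. They included Vnn1, a pantetheinase, at 13.35, 14.56 and 14.58, Klf11 at 6.12, 7.24 and 8.26, and Angptl4, an inhibitor of lipoprotein lipase, at 6.31 with air and 7.75 with intermittent CS. Cpt1a and Acot1 belong to this list as well. Its median was 0.00 and 0.10 against air.

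**Figure D4:**
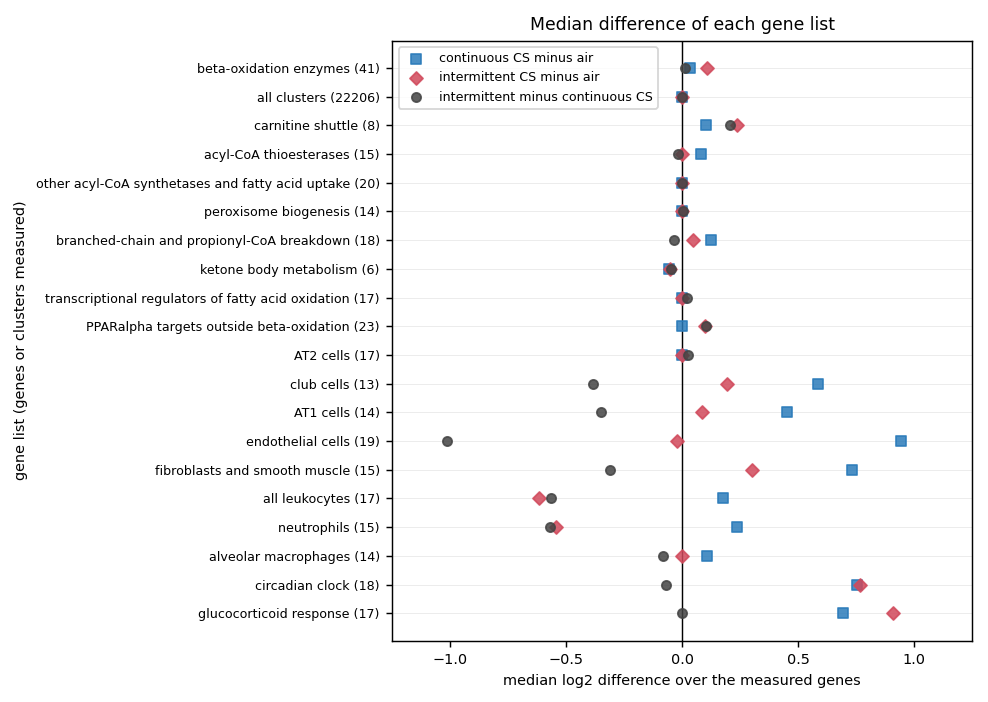
Median log2 difference of each list (x axis) for continuous CS against air, intermittent CS against air and intermittent against continuous CS. The 41 members have medians of 0.03, 0.11 and 0.01, and the clock list has medians of 0.75, 0.77 and -0.07.

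Other signals differed between the same arrays. Clock genes were far apart between the air array and both CS arrays. Dbp, a clock output factor, was at 9.67, 18.02 and 17.93, and Arntl, the activator that pairs with Clock, was at 12.03, 7.01 and 6.56. Of 18 measured clock genes 8 were at least 2-fold higher with each CS pattern, and 5 were lower after continuous CS and 4 after intermittent CS. The 17 measured glucocorticoid response genes had medians of 0.69 and 0.91 against air. Between the CS arrays these lists had medians of -0.07 and 0.00, with 0 genes at least 2-fold apart, although single clock genes differed there by -0.65 (Ciart) to 0.59 (Clock). The part of time of day or glucocorticoids in the differences of the enzymes was not tested.

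Markers of other cells of the lung differed too. Of all clusters, 37.6% were above air with continuous CS, 38.7% below air with intermittent CS and 36.4% lower with intermittent than continuous CS. Of 19 endothelial markers, 17 were above air with continuous CS (median 0.94 on the log2 scale), and 17 were lower with intermittent than continuous CS (median -1.02). Their summed level, on the log2 scale, was 13.90, 14.97 and 13.80, and 18 of them were above the receptor level on each array, Sox17 being the exception. Of 15 fibroblast and smooth muscle markers, 12 were above air with continuous CS (median 0.73), and 11 were lower with intermittent than continuous CS (median -0.31). They summed to 16.38, 16.91 and 16.64, with Lum and Tagln not above the receptor level on any array. Endothelial and fibroblast signals were thus highest on the continuous CS array.

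Leukocyte and neutrophil markers had median differences below 0 for intermittent CS, against air and against continuous CS alike. Of 17 leukocyte markers, 17 were lower with intermittent than continuous CS (median -0.57) and 14 were lower with intermittent CS than with air (median -0.62). They summed to 15.76, 16.00 and 15.61, with Was not above the receptor level on any array. Of 15 neutrophil markers, 11 were above air with continuous CS (median 0.24), 11 were below air with intermittent CS (median -0.54), and 12 were lower with intermittent than continuous CS (median -0.57), 5 of them at least 2-fold. Their sum, 17.09, 16.42 and 16.58, ran another way because Hdc, which makes histamine and has other cell sources, held most of it at 17.05, 16.32 and 16.51. Of these markers 10, 11 and 8 were above the receptor level, and Camp, Ltf, Mmp9 and Ngp were not above it on any array. Of 14 alveolar macrophage markers, 9 were above air with continuous CS (median 0.11) and 9 were lower with intermittent than continuous CS (median -0.08), with sums of 12.88, 13.20 and 12.85 and with Adgre1 and Marco not above the receptor level on any array.

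Markers of other epithelial cells were higher with continuous CS as well. Of 13 club cell markers, 10 were above air with continuous CS, 5 of them at least 2-fold (median 0.59), and 7 were lower with intermittent than continuous CS (median -0.38). Of 14 AT1 markers, 11 were above air with continuous CS (median 0.45) and 10 were lower with intermittent than continuous CS (median -0.35). Few bright clusters carried their sums, which were 20.89, 21.00 and 20.99 for club cells, with Bpifa1 and Cldn10 not above the receptor level on any array, and 19.97, 20.17 and 20.20 for AT1 cells. The 17 AT2 markers had medians of 0.00 against air and 0.02 between the CS arrays, and their sum of 23.23, 23.21 and 23.24 rested in large part on the 5 clusters at the highest value of the scale. The part of these cell types in the differences of the enzymes was not tested.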

How the data were processed

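Per the labels and methods, the authors ran the Transcriptome Analysis Console on the scans of 1 Clariom S array per exposure (RNA from 3 pooled mice) and deposited a table of log2 values, 1 per transcript cluster and array. Its version, summarization, background correction, normalization and build are not given in the sources read. Arrays have no read depth. The sample labels gave each column its exposure.

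Symbols came from the platform annotation (19572 clusters with 1 symbol, 2634 with none). Differences were taken per cluster on the values as deposited, and there was no test, for want of replicates. The members and lists were chosen with earlier results of these data known, and members were left out of the lists. The naming rule took members at least 2-fold apart or farthest apart in their role, and up to 4 genes at least 2-fold apart per pathway list. The other members were added so that all were accounted for, and Dbp and Arntl were chosen after their values were seen. On all 3 arrays, 3027 clusters held equal values, and no source gives a cause. Promoter windows were those of RefSeq (GRCm38.p6), and protein sequences were not used here. Steps were tested on simulated data. Alternatives were median centring, quantile normalization, cyclic loess, a floor at the receptor level, a filter on dim clusters, an offset of 32, folds of 1.5 and 3, the mean in place of the median, ties left out, and the mean over clusters. Python 3.11.15 (numpy 2.4.6, pandas 2.3.3, matplotlib 3.10.9) and R 4.3.3 (limma 3.58.1) were used.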

Additional observations from a re-analysis of the deposited data

Results flagged for a closer look

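Ehhadh, the peroxisomal L-bifunctional protein, lay on opposite sides of the air array with the 2 smoke patterns. Its log2 difference from air was 0.13 for continuous CS and -0.34 for intermittent CS. Both differences use the same air array, each has 1 array per exposure, and the difference between them was not tested. Both lie within the central 95% of the receptor clusters.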

How the results depend on the processing

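No paired analysis was possible because each exposure had 1 array. With a threshold of 1.5-fold, 1 member stood above air with continuous CS, and 5 stood higher with intermittent than continuous CS. At 3-fold, 1 member stood above air with intermittent CS, and 0 stood higher with intermittent than continuous CS. With 32 added to each linear value, 0 members were at least 2-fold higher with intermittent than with continuous CS, as Eci3 then differed by 0.66, and 2 were higher with intermittent CS than with air. Quantile normalization also left 2, with Acadl at 0.99. The other counts, 49 of 54, stayed within 1.5 times the reported ones, and no member at least 2-fold apart changed direction. With values below the receptor level raised to it, the dim members Acsl6 and Acox2 changed sign, Acsl6 from 0.24 to -0.03 and from 0.51 to -0.05 against air and from 0.27 to -0.01 between the CS arrays, and Acox2 from 0.25 to -0.05 for intermittent CS against air. Sign changes under the scalings were all of differences under 0.1. The median of the members, or the mean in its place, ranged from 0.00 to 0.08 for continuous CS against air. It ranged from 0.07 to 0.20 for intermittent CS against air and from 0.01 to 0.13 between the CS arrays. The upper ends of 0.20 and 0.13 were means. Of the member values, 838 moved by less than the standard deviation of the receptor clusters, and the 8 others belonged to Acox2, Acsl6 and Eci3, which are dim. Every member has 1 cluster, so the mean over clusters changed nothing. Scanner signals were not used here, so another background correction was not run. The signal over the receptor level is small for Eci3, Abcd2, Amacr and Acox2, which limits their folds.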
